A study of Mus musculus with 12 samples.

Results

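This comparison sets mouse embryonic stem cells kept in 2i medium against cells of the same line kept in serum with LIF, written SL here, with no tamoxifen in either. It rests on 4 of the 12 RNA-seq libraries of the study, 2 from each medium, and on the 19718 genes found in both media's tables. The line is Foxd3fl/fl;Cre-ER: both copies of Foxd3, a forkhead transcription factor gene, carry loxP sites, and the cells hold a Cre recombinase that acts only when tamoxifen is given. The 2i cells grew in serum-free N2B27 medium with the MEK inhibitor PD0325901 at 0.4 µM, the GSK3β inhibitor CHIR99021 at 3 µM, and LIF, a cytokine that acts through STAT3; no feeder cells are named for them. The SL cells grew on irradiated mouse embryonic fibroblast feeders with 15% fetal bovine serum and LIF. Medium and feeders therefore differ together and cannot be told apart. The labels number the libraries of a group 1 and 2 without saying whether each was grown separately. The spread behind every p-value is that between these libraries only, and it may be technical. The same contrast is available in 4 libraries of the line, 2 in each medium, treated with 2 µM 4-hydroxytamoxifen for 3 days and labelled Foxd3-/-. Levels are also given for 2 libraries of the wild-type line LF2, grown in 15% serum and LIF without feeders and with 1 µg/µl doxycycline for 3 days; they differ from the SL cells in line, feeders and drug.

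Embryonic stem cells in serum receive opposing signals: LIF holds them undifferentiated, while fibroblast growth factor, acting through MEK and ERK, prepares them to leave pluripotency. Blocking MEK removes the second signal, and blocking GSK3 stabilises beta-catenin, which relieves repression of naive genes by the factor TCF7L1. Cells in 2i are therefore used as a model of the naive epiblast of the blastocyst, whereas serum cultures mix naive-like cells with cells closer to the later, formative epiblast. These are bulk libraries, in which fewer cells of a kind and less RNA per cell cannot be told apart.

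Values are FPKM, fragments corrected for transcript length and library size, as deposited and then scaled so that the 4 libraries match at the median gene; differences are 2i minus SL on log2(scaled FPKM + 1). Genes with a mean of at least 1 FPKM in either medium were tested with limma, and called at a Benjamini-Hochberg adjusted p under 0.05 over all 12091 of them. Of these, 4049 genes (33.5%) were higher in 2i and 3611 (29.9%) lower, 63.4% in all, so an adjusted p alone sets few genes apart. Of the genes tested, 1350 (11.2%) were also at least 2-fold higher and 1276 (10.6%) at least 2-fold lower, 21.7% in all, and lists are read below against those shares and against a median difference of 0.04 over all genes. The scaling moves the differences up by 0.265 on the log2 scale; on the values as deposited 2702 genes were higher and 5246 lower. Replicates differed by a median of 0.0911 (log2) in 2i and 0.182 in SL. The deposited tables give reads only as group means, 27060000 reads over the joined genes in 2i and 54060000 reads in SL, so the depth of a single library is unknown. The 5 stem cell markers Pou5f1, Sox2, Nanog, Zfp42 and Dppa5a were present in every library, with summed levels of 2356 and 2271 FPKM in 2i and 1675 and 1423 in SL. Markers of primitive endoderm (Gata4, Gata6, Sox17) and trophectoderm (Cdx2, Elf5, Gata3) summed to at most 1.44 and 1.04 FPKM in any of the 4 libraries.

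**Figure D1:**
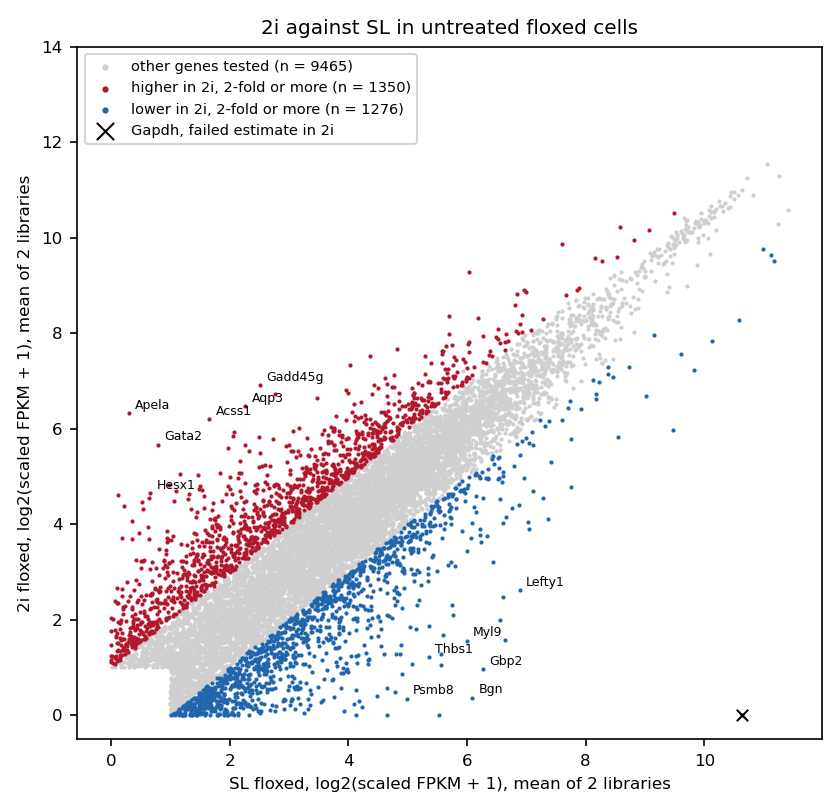
Mean level of each of the 12091 tested genes in SL (x axis) and 2i (y axis), both on log2(scaled FPKM + 1), with 2 libraries in each medium. Coloured points passed an adjusted p under 0.05 and a 2-fold difference, 1350 higher in red and 1276 lower in blue; the cross is Gapdh, listed at 0 in both 2i libraries although the authors' reads show it expressed. Apela and Gata2 lie farthest above the diagonal among labelled genes, and Bgn and Gbp2 far below it.

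Foxd3 itself, on GRCm38 chromosome 4, 99656299 to 99658622, plus strand, was lower in 2i. It stood at 2.75 and 2.68 FPKM in 2i and at 4.12 and 4.29 in SL (log2 difference -0.49, SE 0.13, adjusted p = 0.015), and at 9.702 and 13.2 in the wild-type cells. The 2 media did not overlap, but the call was lost without either 2i library (-0.49 without the first, -0.47 without the second). In the libraries labelled Foxd3-/-, scaled apart from these, the gene stood at 2.16 and 2.504 FPKM in 2i and 1.56 and 1.75 in SL. The transcript was thus still detected in the libraries that carry the deletion label; its level was not tested against the untreated cells, and which part of the gene is removed is not given in the labels.

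Among the genes that rose most, Apela and Gata2 were under 1 FPKM in SL. Apela, which encodes the secreted peptide Elabela that signals through the apelin receptor, lies on chromosome 8, 65028417 to 65037336, minus strand. It was at 73.98 and 85.1 FPKM in 2i and at 0.301 and 0.152 in SL (log2 difference 6.04, SE 0.14, adjusted p = 2.3e-06). Gata2, a zinc-finger transcription factor of trophoblast and blood progenitors, stood at 52.5 and 47.2 FPKM in 2i against 0.889 and 0.5597 in SL (log2 difference 4.89, SE 0.15, adjusted p = 4.1e-06). The media did not overlap for either gene. Acss1, the mitochondrial acetyl-CoA synthetase, was at 75.8 and 68.9 FPKM in 2i and 2.18 and 2.11 in SL, 33.7-fold higher. Gadd45g, a stress and growth arrest gene, was at 99.01 and 140.4 in 2i and 4.08 and 5.36 in SL, 25.4-fold higher. The other 8 of the 12 largest rises were Aqp3, a water and glycerol channel, S100a13, Hesx1, a homeobox repressor of the anterior embryo, Fxyd2, a sodium pump subunit, Rab3il1, the cation channel Trpm1, the adhesion receptor Adgrg1, and Rasd1, a Ras-like GTPase; they rose by 3.85 (Rasd1) to 4.27 (Aqp3) on the log2 scale. The falls were led by Bgn, the extracellular matrix proteoglycan biglycan (chromosome X, 73483602 to 73495933, plus strand), at 0.472 and 0.111 FPKM in 2i and 62.4 and 72.1 in SL (log2 difference -5.73, SE 0.17, adjusted p = 4.0e-06). The others of the 12 largest falls were Thbs1, a matrix glycoprotein, the contractile genes Myl9, Tagln and Cnn1, the interferon-inducible genes Gbp2, Psmb8, Irgm1 and Oasl2, and the signalling targets Id3, Lefty1 and Egr1, each described with its group below. These 12 and 12 leave out rows whose mean reads and FPKM ratios disagree, rows of several genes, pseudogenes and genes with a predicted-gene name; the last of these limits leaves out the row deposited as Snrpn (-4.56, described with the imprinted genes), which GENCODE M21 names Gm38393.

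Most naive pluripotency factors were higher in 2i, but not all. Of 21 measured and tested, 13 rose and 6 fell; 9 were at least 2-fold higher and 2 at least 2-fold lower, and the median difference was 0.69. Tfcp2l1, a factor that sustains self-renewal downstream of STAT3, was at 66.03 and 63.01 FPKM in 2i and 15.03 and 8.94 in SL (log2 difference 2.38, SE 0.21, adjusted p = 7.7e-05). Esrrb, the orphan nuclear receptor repressed by TCF7L1, was at 208 and 189 in 2i and 49.6 and 44.8 in SL (log2 difference 2.05, SE 0.10, adjusted p = 1.2e-05). In both genes each 2i library stood above each SL library by several fold. Prdm14, which restrains FGF signalling and de novo DNA methylation, was at 10.4 and 10.97 FPKM in 2i and 2.09 and 1.81 in SL (log2 difference 1.99, SE 0.14, adjusted p = 3.1e-05). Dppa3, a maternal and germ cell factor that protects against methylation, was at 256 and 252 in 2i and 63.02 and 39.1 in SL (log2 difference 2.33, SE 0.20, adjusted p = 6.9e-05). Tcl1, a co-activator of AKT kinase, was at 57.5 and 57.5 in 2i and 16.1 and 7.25 in SL (log2 difference 2.30, SE 0.29, adjusted p = 4.1e-04). For Tfcp2l1, Dppa3 and Tcl1 the SL libraries were unequal, the first higher than the second, but no SL library came near a 2i library. Nanog rose less than these, from 97.9 and 97.4 FPKM in SL to 159 and 158 in 2i (log2 difference 0.69, SE 0.09, adjusted p = 4.9e-04). Klf4, a direct target of LIF, went the other way, at 23.01 and 20.1 FPKM in 2i and 53.9 and 35.5 in SL (log2 difference -0.99, SE 0.19, adjusted p = 0.0028). Nanog and Klf4 thus changed in opposite directions within the same list. List sums were 3033 and 2881 FPKM in 2i, 1781 and 1403 in SL, and 3081 and 3148 in the feeder-free wild-type serum cells. In those cells Nanog (337.3 and 316.5), Klf4 (83.49 and 103.5), Prdm14 (23.35 and 17.33) and Tcl1 (132.8 and 129.1) stood above both media. Tfcp2l1 (50.25 and 53.82) and Esrrb (127.1 and 172.6) lay between the media, and Dppa3 (9.143 and 10.74) below both. Line, feeders and drug differ together there and cannot be told apart.

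The core factors Pou5f1 and Sox2, shared by all pluripotent states, did not pass the test, and most genes listed with them fell. Pou5f1, which encodes OCT4, was at 464 and 488 FPKM in 2i and 528 and 456 in SL, a log2 difference of -0.04 with an adjusted p of 0.74. Sox2, its partner, was at 115 and 96.99 in 2i and 114 and 111 in SL, a difference of -0.09 (adjusted p = 0.48). The ranges of the 2 media overlapped for Pou5f1, whose difference became 0.059 without SL library 1 and 0.015 without 2i library 1, and for Sox2, whose difference became 0.039 without 2i library 2. On the values as deposited, without scaling, both passed as lower, at -0.333 and -0.381. Of the 14 genes in this list, 10 fell, 8 of them at least 2-fold, and none rose (median -1.15). L1td1, an RNA-binding protein gene derived from a LINE-1 element, fell from 179 and 149 FPKM in SL to 19.5 and 12.9 in 2i (log2 difference -3.28, SE 0.19, adjusted p = 1.5e-05). Utf1, a chromatin-bound factor, fell from 174 and 165 to 36.5 and 40.2 (log2 difference -2.12, SE 0.10, adjusted p = 1.0e-05). Lin28a, which blocks let-7 microRNA maturation, was at 56.8 and 57.04 in 2i and 127 and 97.5 in SL (log2 difference -0.96, SE 0.14, adjusted p = 6.8e-04). Dppa2, a chromatin-bound factor of pluripotent cells, was 5.52-fold lower.

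Every formative and primed epiblast gene measured was lower in 2i: 18 of 18 fell, 15 of them at least 2-fold, with a median of -1.65 and the smallest fall at -0.80. Pou3f1, the POU factor OCT6 of the post-implantation epiblast, was at 0.587 and 0.794 FPKM in 2i and 11.1 and 13.8 in SL (log2 difference -2.99, SE 0.16, adjusted p = 1.4e-05). Otx2, which opens formative enhancers, was at 6.11 and 6.26 in 2i and 22.6 and 20.6 in SL (log2 difference -1.65, SE 0.12, adjusted p = 4.1e-05). Fgf5, the standard marker of the primed state, was low throughout, at 0 and 0.0272 in 2i and 1.87 and 1.17 in SL (log2 difference -1.30, SE 0.16, adjusted p = 4.1e-04). Tcf15, a basic helix-loop-helix factor (25.6 and 18.9 FPKM in SL, 3.17 and 2.73 in 2i), and Foxp1, a forkhead factor (18.5 and 19.4 in SL, 2.46 and 2.63 in 2i) fell by 7.55-fold and 7.44-fold. Summed over the list, the level was 92.8 and 94.9 FPKM in 2i, 471 and 511 in SL, and 112 and 147 in the feeder-free wild-type serum cells, nearer the 2i sums than the SL ones. Those cells held Otx2 at 7.198 and 6.7 FPKM, Pou3f1 at 0.919 and 1.23, Fgf5 at 0.0383 and 0.0124 and Dnmt3b at 23.6 and 33.2, near the 2i levels, but Tcf15 at 24.7 and 40.9 and Foxp1 at 9.64 and 16.4. Line, feeders and drug cannot be told apart in this difference between the serum cells.

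**Figure D2:**
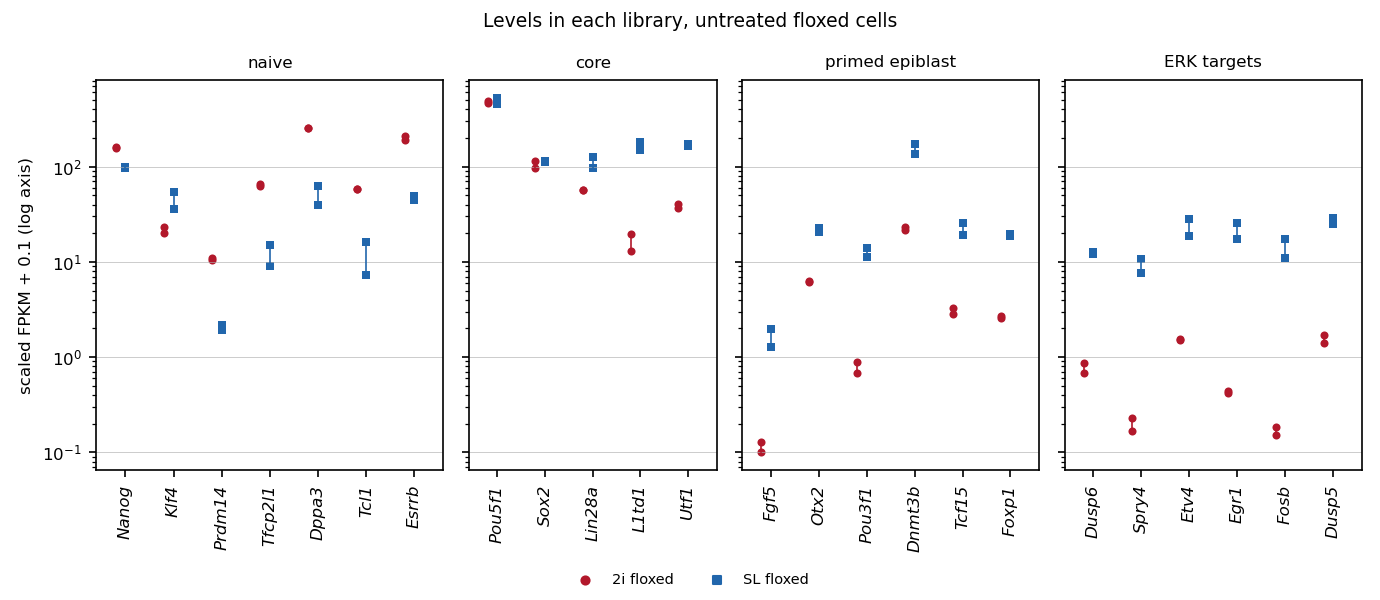
Level of 24 genes in each library of untreated floxed cells: scaled FPKM + 0.1 on a log axis, with 1 point for each library, a line joining the 2 libraries of a medium, red circles for 2i and blue squares for SL. The primed epiblast and ERK target genes lie lower in 2i in both libraries, Klf4 lies lower in 2i among otherwise higher naive factors, and Pou5f1 and Sox2 overlap.

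The targets of ERK, the kinase below the inhibited MEK, were among the lowest. ERK induces immediate early transcription factors within minutes and, more slowly, its own feedback inhibitors, the dual-specificity phosphatases and Sprouty proteins. Of 23 such genes tested, 21 fell and 1 rose; 17 fell at least 2-fold and the median was -1.78, against 10.6% and 0.04 over all genes. Dusp6, the ERK phosphatase, was at 0.757 and 0.5797 FPKM in 2i and 11.97 and 12.6 in SL (log2 difference -2.99, SE 0.14, adjusted p = 9.5e-06). Spry4, a Sprouty inhibitor, was at 0.0684 and 0.129 in 2i and 10.5 and 7.51 in SL (log2 difference -3.17, SE 0.18, adjusted p = 1.4e-05). Etv4, an ETS factor induced by FGF, was at 1.42 and 1.45 in 2i and 28.1 and 18.4 in SL (log2 difference -3.29, SE 0.20, adjusted p = 1.9e-05). Each of these feedback genes was over 10-fold lower and the media did not overlap. The immediate early gene Egr1 was at 0.317 and 0.343 FPKM in 2i and 17.1 and 25.5 in SL (log2 difference -4.04, SE 0.20, adjusted p = 1.0e-05). Fosb, an AP-1 subunit, was at 0.0845 and 0.0532 in 2i and 10.9 and 17.5 in SL (log2 difference -3.79, SE 0.21, adjusted p = 1.4e-05). Dusp5, a nuclear ERK phosphatase, was at 1.596 and 1.29 in 2i and 28.98 and 24.8 in SL (log2 difference -3.51, SE 0.15, adjusted p = 7.1e-06). Fosl1 and Ier2, also immediate early genes, were 27.6-fold and 5.23-fold lower. In the feeder-free wild-type serum cells the 10 feeder markers named below summed to 3.97 and 2.54 FPKM. Spry4 stood there at 15.3 and 21.5 FPKM, Etv4 at 61.6 and 67.7 and Dusp6 at 7.12 and 11.1, near or above the SL values. Fosb (0.0249 and 0.138), Fosl1 (0.305 and 0.623) and Dusp5 (3.77 and 2.98) were well below the SL values there.

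Myc and cyclin genes, which ERK and Wnt signals feed into, split by member. Myc was at 0.173 and 0.253 FPKM in 2i and 13.7 and 7.57 in SL (log2 difference -3.21, SE 0.24, adjusted p = 4.3e-05), and Mycn at 17.4 and 12.9 in 2i and 91.04 and 102 in SL (log2 difference -2.60, SE 0.15, adjusted p = 1.5e-05). Both Myc family genes were over 6-fold lower. Their list, which also holds ribosome biogenesis genes that MYC activates, had a median of only -0.14: of 24 tested, 9 fell and 4 rose, the risers including Cad, the first enzyme of pyrimidine synthesis (1.801-fold higher), and Dkc1, the pseudouridine synthase dyskerin (1.67-fold higher). Among 18 cyclins and inhibitors, 11 rose and 4 fell (median 0.54; 6 and 4 at least 2-fold). Ccnd2 was at 0.102 and 0.103 FPKM in 2i and 5.805 and 9.35 in SL (log2 difference -2.93, SE 0.21, adjusted p = 3.2e-05), and Ccnd1 at 23.5 and 20.99 in 2i and 61.8 and 49.2 in SL (log2 difference -1.27, SE 0.14, adjusted p = 1.9e-04). The third D-type cyclin, Ccnd3, rose, from 50.1 and 44.5 to 127 and 140.5 (log2 difference 1.48, SE 0.11, adjusted p = 3.9e-05), as did Cdk2 (3.02-fold) and Rbl2, the retinoblastoma-like repressor p130 (3.96-fold). Cdkn1b, the inhibitor p27, was called higher at 0.46; that call was lost on the values as deposited (0.191), with upper-quartile scaling (0.334), with no minimum FPKM, without SL library 1 (0.255) and without either 2i library (0.506 and 0.459).

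The Wnt targets did not rise as a group in the presence of the GSK3 inhibitor. Of 20 listed, 11 were tested; 5 fell, 2 rose and the median was -0.18, which became 0.12 with a minimum of 5 FPKM. Axin2, the feedback scaffold of the pathway, was at 5.34 and 4.74 FPKM in 2i and 11.5 and 13.8 in SL (log2 difference -1.17, SE 0.15, adjusted p = 3.8e-04). Sp5, a zinc-finger target, was at 0.359 and 0.295 in 2i and 4.52 and 3.62 in SL (log2 difference -1.93, SE 0.15, adjusted p = 4.5e-05). Lef1, the DNA-binding partner of beta-catenin, was at 3.61 and 2.905 in 2i and 28.5 and 20.02 in SL (log2 difference -2.55, SE 0.19, adjusted p = 3.8e-05). All of these were lower in 2i, while Ascl2, a basic helix-loop-helix factor, was higher, at 7.12 and 7.61 against 1.603 and 2.13 (log2 difference 1.55, SE 0.15, adjusted p = 1.3e-04). T, the brachyury factor of the primitive streak, was at 0.497 and 0.511 in 2i, but its SL libraries held 4.29 and 0.995 (log2 difference -1.11, SE 0.39, adjusted p = 0.037), and the difference was -1.79 without SL library 2. The wild-type cells, which received no GSK3 inhibitor and had no feeders, held Axin2 at 1.02 and 1.96 FPKM, Lef1 at 0.118 and 0.143 and Sp5 at 0.208 and 0.316, all below the SL libraries, and Axin2 and Lef1 below the 2i libraries too. A short TCF element (CTTTGAT, either strand, in the 250 bases before to 50 after the start) occurred in 1 of 21 promoter windows of this list, that of Sp5, and in 3.729% of all 32851 windows.

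The BMP-induced genes Id1 and Id3 and the ligand gene Nodal were lower in 2i, while most LIF pathway genes that passed were higher. Id1, an inhibitor of basic helix-loop-helix factors induced by BMP in serum, was at 1.54 and 1.98 FPKM in 2i and 30.2 and 27.1 in SL (log2 difference -3.43, SE 0.15, adjusted p = 7.1e-06). Id3 was at 0.391 and 0.428 in 2i and 28.8 and 24.5 in SL (log2 difference -4.29, SE 0.14, adjusted p = 4.1e-06). Both were under 2 FPKM in serum-free 2i, and the feeder-free serum cells held Id1 at 63.9 and 65.5 and Id3 at 4.89 and 13.2. Of 11 tested BMP genes, 5 fell and 1 rose (median -0.31), including Msx1 (15.3-fold lower) and Bmp4, whose call was lost without SL library 1 (-0.370) and was -1.33 without SL library 2. Nodal, the TGF-beta ligand of the epiblast, was at 3.57 and 2.67 FPKM in 2i and 24.9 and 26.4 in SL (log2 difference -2.70, SE 0.15, adjusted p = 1.4e-05). Its target and antagonist Lefty1 was at 5.75 and 4.498 in 2i and 74.9 and 159.6 in SL (log2 difference -4.18, SE 0.31, adjusted p = 3.9e-05), and Lefty2 was 4.55-fold lower. The Nodal list counted 6 falls and 4 rises of 12 (median -0.37); Pcsk6, a convertase that activates the ligand, was among the rises (2.28-fold higher). In the LIF list 6 of 11 rose, 4 at least 2-fold, and 1 fell (median 0.91). Socs3, the feedback inhibitor that STAT3 induces, was at 94.8 and 90.9 FPKM in 2i and 36.8 and 28.8 in SL (log2 difference 1.49, SE 0.13, adjusted p = 8.2e-05). Pim1, a kinase gene, was 3.77-fold higher, Stat3 2.11-fold and the receptor gene Lifr 2.03-fold higher, although both media contained LIF.

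Fibroblast genes were lower in 2i, and the SL cells were the ones grown on feeders. The 10 markers that define fibroblast feeders (Col1a1, Col1a2, Col3a1, Postn, Lum, Dcn, Thy1, Pdgfrb, Prrx1 and Twist2) summed to 9.22 and 10.1 FPKM in 2i, with 3 and 2 of them at 0. The sums were 73.6 and 91.1 in SL, with none at 0, and 3.97 and 2.54 in the wild-type cells, with 4 and 5 at 0. The SL libraries thus carried a far stronger fibroblast signal than the feeder-free serum cells, where 1 marker reached 1 FPKM in each library. All 7 of these markers that were tested fell. Col1a1, a collagen I chain, was at 3.54 and 4.01 FPKM in 2i, 24.2 and 33.5 in SL and 0.661 and 0.549 in the wild-type cells (log2 difference -2.63, SE 0.17, adjusted p = 2.5e-05 for 2i minus SL). Col3a1 was at 0.346 and 0.169 in 2i and 6.71 and 6.45 in SL (log2 difference -2.60, SE 0.14, adjusted p = 1.4e-05). Lum was listed at 0 in both 2i libraries and stood under 0.1 FPKM in SL. Over the whole fibroblast list 25 of 27 tested genes fell, 22 at least 2-fold (median -2.03). Fn1, fibronectin, was the exception that rose, from 106 and 134 FPKM in SL to 345 and 320.3 in 2i (log2 difference 1.47, SE 0.13, adjusted p = 7.8e-05). Without Fn1 the list summed to 44.4 and 47.7 FPKM in 2i, 360.2 and 389 in SL and 44.9 and 41.1 in the wild-type cells. Of the male-specific genes, Eif2s3y stood at 0.526 and 0.569 FPKM and Ddx3y at 0.294 and 0.254 in SL, and both were listed at 0 in the 2i and wild-type libraries. The 3 male-specific genes measured summed to 0.0672 and 0.0795 FPKM in 2i, with 2 of them at 0, so the remaining gene was above 0 there. The sums were 0.861 and 0.87 in SL and 0 in the wild-type cells. How far the feeders contribute to any other difference was not tested; their markers are therefore to be read beside each group that is lower in 2i.

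Genes of the actin cytoskeleton and of its transcription factors SRF and YAP fell alongside, 22 of 24 tested, 16 of them at least 2-fold (median -1.49), and 1 rose. SRF binds the CArG box, a run of A and T bases between paired C and G bases, and drives contractile and immediate early genes. The 250 bases before the start of 3 genes that fell and hold a CArG box are shown for that box, marked in capitals; a match describes the letters and is not evidence of binding. All are from RefSeq on GRCm38.p6, 5′ to 3′ on the gene's strand. Myl9 is chr2:156775214-156775463, Vcl is chr14:20929148-20929397 and Dusp5 is chr19:53528895-53529144, each on the plus strand.
Myl9: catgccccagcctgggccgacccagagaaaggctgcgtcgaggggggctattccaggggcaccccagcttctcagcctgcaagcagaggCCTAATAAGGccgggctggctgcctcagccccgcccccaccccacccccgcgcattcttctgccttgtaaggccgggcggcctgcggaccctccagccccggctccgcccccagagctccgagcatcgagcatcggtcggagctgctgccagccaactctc
Vcl: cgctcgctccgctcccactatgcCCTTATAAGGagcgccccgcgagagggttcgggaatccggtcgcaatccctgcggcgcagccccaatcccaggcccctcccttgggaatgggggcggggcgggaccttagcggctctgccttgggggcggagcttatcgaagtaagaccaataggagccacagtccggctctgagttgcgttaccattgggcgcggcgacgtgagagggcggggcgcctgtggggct
Dusp5: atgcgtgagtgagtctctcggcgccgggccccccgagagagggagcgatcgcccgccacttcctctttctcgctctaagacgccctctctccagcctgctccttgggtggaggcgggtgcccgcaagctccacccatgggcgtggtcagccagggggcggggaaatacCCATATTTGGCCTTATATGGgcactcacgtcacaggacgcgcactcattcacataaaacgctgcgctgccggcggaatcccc
The box starts 161 bases before the start of Myl9 and 227 before that of Vcl, and Dusp5 has a pair of boxes side by side, the first 82 bases before its start. In windows from 250 bases before to 50 after the start, a CArG box was searched on either strand. It was found in 6 of 22 windows (27.27%) from 21 genes of the actin list (Acta1, Actg1, Cnn2, Myl9, Srf, Vcl). The ERK list had it in 5 of 24 windows (20.83%) from 16 genes, but only 2 of these genes, Dusp5 and Egr2, held a match (12.5%). A box was found in 0 of 20 windows of the fibroblast list, in 1.629% of all windows and in 1.806% of all genes. Myl9, a myosin light chain of contractile cells, was at 1.903 and 2.01 FPKM in 2i and 72.5 and 53.2 in SL (log2 difference -4.42, SE 0.16, adjusted p = 5.2e-06). Acta2, smooth muscle actin, was at 3.06 and 4.82 in 2i and 55.1 and 49.98 in SL (log2 difference -3.46, SE 0.18, adjusted p = 1.2e-05). Ctgf, a YAP target, was at 2.94 and 3.6 in 2i and 53.7 and 52.7 in SL (log2 difference -3.67, SE 0.13, adjusted p = 4.1e-06). The wild-type cells held Myl9 at 1.03 and 3.96 FPKM, Acta2 at 0.09701 and 2.05 and Ctgf at 6.57 and 8.66, near the 2i values rather than the SL ones. Tagln, which encodes the actin-binding protein transgelin, and Cnn1, calponin, were 21-fold and 49.1-fold lower, and Rhob, a small GTPase gene, was 10.4-fold lower. Tpm1, a tropomyosin, fell less, from 198 and 186 to 69.7 and 73.9 (log2 difference -1.41, SE 0.10, adjusted p = 3.0e-05), with 49.5 and 56.2 in the wild-type cells.

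Several interferon-inducible genes were near silent in 2i. The promoters of Gbp2 and Irgm1 are shown for the GAAA repeats that interferon-regulated factors read, a motif searched after the values had been seen; capitals mark matches to GAAANNGAAA on either strand. Gbp2 is chr3:142620413-142620662 on the plus strand and Irgm1 is chr11:48871421-48871670 on the minus strand, from the same source and build.
Gbp2: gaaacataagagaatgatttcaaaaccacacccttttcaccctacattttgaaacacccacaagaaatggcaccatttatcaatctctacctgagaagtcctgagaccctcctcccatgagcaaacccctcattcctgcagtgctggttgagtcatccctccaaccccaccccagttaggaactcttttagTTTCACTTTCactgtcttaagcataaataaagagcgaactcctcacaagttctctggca
Irgm1: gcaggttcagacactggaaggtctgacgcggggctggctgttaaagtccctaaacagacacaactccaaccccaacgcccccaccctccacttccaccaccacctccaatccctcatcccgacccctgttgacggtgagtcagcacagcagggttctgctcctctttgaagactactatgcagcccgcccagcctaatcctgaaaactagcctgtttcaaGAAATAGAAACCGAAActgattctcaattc
The match starts 59 bases before the start of Gbp2, and Irgm1 has a pair that overlap, the first 30 bases before its start. Such a match was found in 8 of 19 windows of the interferon list (42.11%), those of B2m, Bst2, Gbp2, Ifit1, Ifit3, Ifitm2, Ifitm3 and Isg15, and in 3.443% of all windows. The genes with a match went different ways, since Gbp2 fell, Ifitm2 and Ifitm3 rose, B2m and Bst2 did not pass, and Ifit1, Ifit3 and Isg15 have no tested value. Gbp2, a guanylate-binding GTPase, was at 0.682 and 1.25 FPKM in 2i and 67.6 and 85.2 in SL (log2 difference -5.31, SE 0.18, adjusted p = 4.1e-06). Irgm1, an immunity GTPase outside the list, was at 1.24 and 0.922 in 2i and 51.4 and 41.2 in SL (log2 difference -4.50, SE 0.16, adjusted p = 4.1e-06). Psmb8, an immunoproteasome subunit, was at 0.4004 and 0.145 in 2i and 25.5 and 35.8 in SL (log2 difference -4.62, SE 0.20, adjusted p = 7.1e-06). All of them stood under 1 FPKM in the wild-type serum cells, at 0.162 and 0.618, 0.607 and 0.624 and 0 and 0.119. Oasl2 and Psmb9 were 35.1-fold and 16.2-fold lower. The list was split: 9 of 15 tested genes fell and 4 rose (median -0.95). Ifitm1, Ifitm2 and Ifitm3, named after their values were seen, were among the rises. B2m, the light chain of class I molecules, was at 45.98 and 49.05 in 2i and 40.5 and 47.2 in SL (difference 0.12, adjusted p = 0.39), and turned to -0.165 on the values as deposited and -0.017 with upper-quartile scaling.

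**Figure D3:**
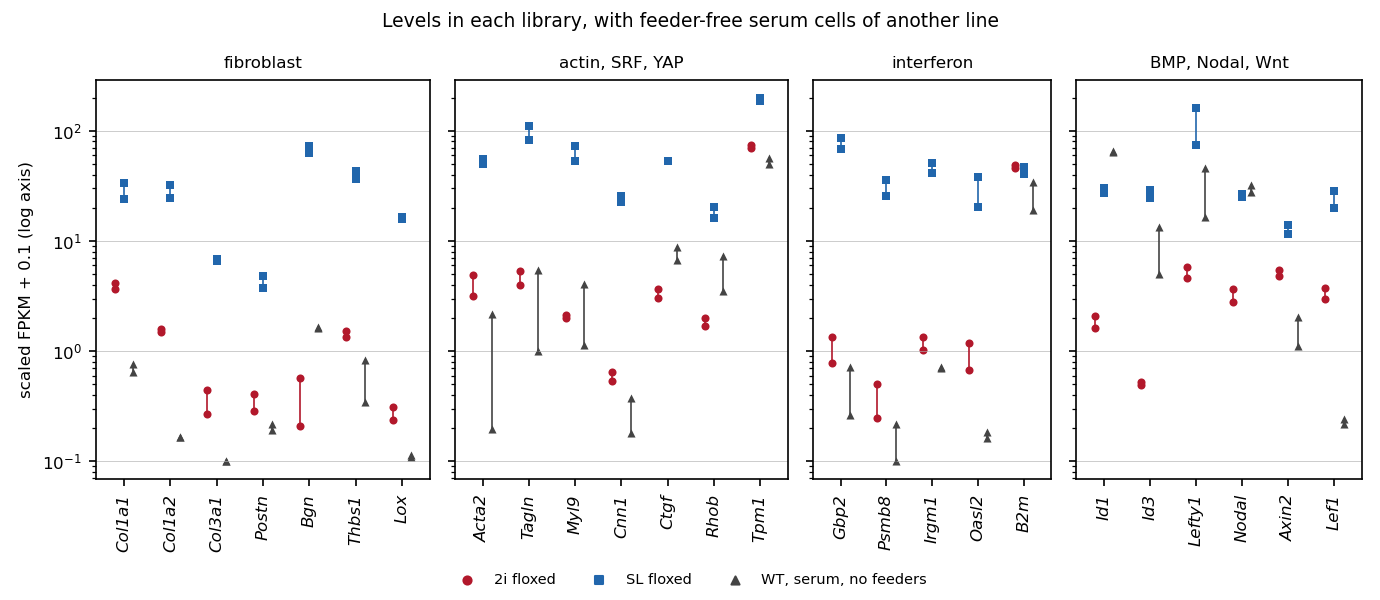
Level of 25 genes in each library: scaled FPKM + 0.1 on a log axis, 1 point for each library, a line joining the 2 libraries of a group, with 2i floxed (red circles), SL floxed (blue squares, grown on feeders) and wild-type LF2 cells (grey triangles, serum without feeders). The fibroblast genes drawn, and the interferon genes drawn other than B2m, are high in the SL libraries alone. Those interferon genes are among the largest falls, and their list as a whole was split. Id1 and Nodal are as high or higher in the feeder-free serum cells.

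Lineage genes other than these were mostly below the threshold for testing. In the mesendoderm list 5 of 14 measured genes were tested, with 3 falls and 1 rise. Eomes, a T-box factor of the streak, was at 0.776 and 0.872 FPKM in 2i and 3.63 and 1.73 in SL (log2 difference -0.96, SE 0.24, adjusted p = 0.0091; -0.577 without SL library 1). Gsc, goosecoid, rose from 1.099 and 1.43 to 4.31 and 4.78 (log2 difference 1.29, SE 0.15, adjusted p = 2.5e-04). Gata4 and Gata6, the primitive endoderm regulators, stayed under 1 FPKM in all 4 libraries, while of 9 tested genes of their list 6 fell and 3 rose; Lama1, laminin alpha 1, was 3.505-fold higher and Lrp2, megalin, 5.72-fold lower. The trophectoderm list held 6 rises and 4 falls of 10 tested (median 1.12). Tfap2c, a trophoblast and germ cell factor, was at 33.8 and 35.2 FPKM in 2i and 10.3 and 9.5 in SL (log2 difference 1.71, SE 0.11, adjusted p = 2.7e-05), and Tead4, which starts the trophectoderm programme, was 3.65-fold higher. The simple keratins fell, Krt8 from 85.1 and 64.5 to 10.5 and 12.3 (log2 difference -2.60, SE 0.15, adjusted p = 1.6e-05) and Krt18 by 5.498-fold, with Krt8 at 11.96 and 15.9 in the wild-type cells. The list's defining factor Gata3 was at most 0.212 FPKM in the 4 libraries. Of 6 neural genes tested, 3 fell and 1 rose; Pax6 was at 0.924 and 0.925 FPKM in 2i and 5.47 and 4.29 in SL (log2 difference -1.60, SE 0.15, adjusted p = 1.2e-04), and Nes, the intermediate filament nestin, was 4.13-fold lower. Of 36 Hox genes measured, Hoxc13 alone was tested, and it was higher, at 1.74 and 1.95 FPKM in 2i and 0.439 and 0.254 in SL (log2 difference 1.08, SE 0.14, adjusted p = 4.7e-04).

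Adhesion, Notch and retinoic acid genes were mixed. Cdh1, E-cadherin, was at 151 and 148 FPKM in 2i and 139.6 and 145 in SL, a difference of 0.07 (adjusted p = 0.51) that turned to -0.215 as deposited and -0.065 with upper-quartile scaling. Cdh2, N-cadherin, fell from 4.84 and 4.06 to 1.23 and 1.17 (log2 difference -1.30, SE 0.14, adjusted p = 2.2e-04). In this list of 19 genes 10 fell and 4 rose (median -0.48), with the claudin genes Cldn6 and Cldn4 going opposite ways (4.39-fold lower and 3.11-fold higher). Of 16 Notch genes tested, 8 fell and 2 rose (median -0.42). The ligand gene Dll1 was at 32.9 and 33.3 FPKM in 2i and 4.798 and 12.4 in SL (log2 difference 1.96, SE 0.33, adjusted p = 0.0016), and the target Nrarp at 0.5199 and 0.473 in 2i and 6.37 and 8.52 in SL (log2 difference -2.48, SE 0.16, adjusted p = 2.6e-05). A ligand thus rose while a feedback target fell. Hes1 was called higher at 0.62, a call lost without 2i library 1 (0.512), and Notch1 did not pass (-0.10, adjusted p = 0.65). The retinoic acid list had 4 rises and 4 falls of 10, against 33.5% and 29.9% of all genes. Crabp2, a carrier that delivers retinoic acid to its receptors, was at 44.4 and 48.2 FPKM in 2i and 12.2 and 12.8 in SL (log2 difference 1.81, SE 0.11, adjusted p = 1.9e-05), and its relative Crabp1 was 4.37-fold higher. The receptor gene Rarg was 4.99-fold lower.

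Of 18 DNA methylation genes 7 rose and 7 fell (median -0.02), against 33.5% and 29.9% of all genes. The largest rises were those of the stress genes Gadd45g (4.39) and Gadd45b (2.85), counted in the list for their reported part in demethylation. The de novo methyltransferase gene Dnmt3b was at 23.3 and 21.5 FPKM in 2i and 135 and 172 in SL (log2 difference -2.72, SE 0.13, adjusted p = 1.1e-05). Dnmt3a was at 20.01 and 19.09 in 2i and 62.6 and 73.9 in SL (log2 difference -1.75, SE 0.12, adjusted p = 2.8e-05). Dnmt3l, their catalytically inactive cofactor, was at 15.7 and 15 in 2i and 73.1 and 60.7 in SL (log2 difference -2.05, SE 0.12, adjusted p = 1.7e-05). All of the de novo genes named were lower in both 2i libraries. Uhrf1, which brings the maintenance enzyme to newly copied DNA, rose from 87.5 and 90.2 to 252 and 229.5 (log2 difference 1.43, SE 0.10, adjusted p = 3.0e-05), as did Zfp57, a guardian of imprinted methylation (2.44-fold). Dnmt3a (10.7 and 12.5 FPKM) and Dnmt3b (23.6 and 33.2) were near the 2i levels in the wild-type serum cells too, but Dnmt3l was not (140.4 and 104). Among 22 Polycomb subunits 9 rose and 7 fell (median 0.05), and 7 and 10 as deposited, so this list too lay near the shares of all genes. Ezh1 (3.299-fold higher) and Phf19 (4.32-fold higher) rose, while Jarid2 (2.68-fold lower) and Cbx2 (2.88-fold lower) fell; Ezh2, the main methyltransferase subunit, was called higher at 0.45, a call lost as deposited (0.164) and without either 2i library (0.494 and 0.442).

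Primordial germ cell genes were higher, and meiotic genes were called about as often in each direction as all genes. Of 10 specification genes tested 9 rose, 8 at least 2-fold (median 1.76), against 11.2% of all genes; Dppa3, Prdm14 and Tfap2c also stand in lists above. Kit, the receptor for stem cell factor, was at 51.4 and 47.1 FPKM in 2i and 7.76 and 6.23 in SL (log2 difference 2.66, SE 0.13, adjusted p = 1.1e-05). Alpl, tissue-nonspecific alkaline phosphatase, was at 121 and 113 in 2i and 24.1 and 28.4 in SL (log2 difference 2.12, SE 0.11, adjusted p = 1.4e-05). Prdm1, the repressor BLIMP1 that specifies germ cells, was at 5.94 and 4.94 in 2i and 1.47 and 2.22 in SL (log2 difference 1.19, SE 0.18, adjusted p = 8.8e-04). No SL library reached a 2i library in any of them. In the germline and meiosis list 9 rose and 8 fell of 27 (median -0.03), near the 33.5% and 29.9% of all genes. Dazl, an RNA-binding translational regulator, was at 12.1 and 14.8 FPKM in 2i and 3.94 and 2.85 in SL (log2 difference 1.72, SE 0.17, adjusted p = 1.5e-04). Tex19.1, a repressor of transposons, fell from 152 and 96.4 to 33.9 and 26.7 (log2 difference -1.97, SE 0.21, adjusted p = 1.9e-04). Mael and Sycp3, genes of piRNA silencing and of the synaptonemal complex, did not pass (adjusted p = 0.48 and 0.55), and Sycp3 turned to 0.074 without 2i library 1. The 2-cell-like list, genes of a rare totipotent-like state, had 5 tested genes of 14 measured, 4 of them Zscan4 copies, and all 5 fell (median -1.21); near-identical copies may share reads, so these values are uncertain.

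Imprinted genes, read from 1 parental copy, fell more often than they rose: 12 of 22 tested fell and 8 rose, 6 and 4 at least 2-fold (median -0.46). The row for Snrpn held 2.93 and 3.01 FPKM in 2i and 100.2 and 85.9 in SL (log2 difference -4.56, SE 0.12, adjusted p = 3.2e-06), but it overlaps its host transcript Snurf and is uncertain; the feeder-free wild-type cells held it at 68.2 and 83.01. Dlk1, a Notch-like ligand, was at 0.5001 and 0.394 in 2i and 6.53 and 7.34 in SL (log2 difference -2.45, SE 0.14, adjusted p = 1.5e-05). Mest was at 13.2 and 13.9 in 2i and 34.9 and 42.4 in SL (log2 difference -1.44, SE 0.13, adjusted p = 8.8e-05), and Grb10, an adaptor that restrains insulin signalling, was 2.72-fold lower. The wild-type cells held Mest at 45.4 and 72.5 FPKM and Dlk1 at 2.04 and 2.04. Sfmbt2, a Polycomb-group gene, was the highest riser named, at 17.2 and 17.7 against 5.002 and 4.04 (log2 difference 1.75, SE 0.14, adjusted p = 5.5e-05).

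In metabolism, respiratory chain genes moved in 1 direction by small steps. Of 65 subunits of the complexes and ATP synthase tested, 54 rose, 4 of them at least 2-fold, and none fell; the median was 0.56, and as deposited 34 rose and 1 fell (median 0.28). Cox6a1, a cytochrome oxidase subunit, was at 468 and 491 FPKM in 2i and 239.9 and 222 in SL (log2 difference 1.05, SE 0.10, adjusted p = 1.1e-04). Ndufa10, of complex I, was at 112 and 125 in 2i and 60.3 and 51.8 in SL (log2 difference 1.06, SE 0.12, adjusted p = 2.1e-04). The authors' mean reads gave Ndufa10 a smaller log2 ratio, 0.336 against 0.946 from FPKM, each centred on its median over genes. Atp5b, the catalytic beta subunit of ATP synthase, was called higher at 0.57, a call lost on the values as deposited (0.280). Glycolysis genes numbered 13 rises and 4 falls of 22 (median 0.37; 6 and 8 as deposited), and 1 of the falls, Gapdh, is a failed estimate listed at 0 in 2i. The isoforms of single steps changed by different amounts. Hk1, a hexokinase, was at 108 and 104 FPKM in 2i and 13.6 and 16.4 in SL (log2 difference 2.75, SE 0.12, adjusted p = 7.1e-06). Ldhb, the lactate dehydrogenase subunit of oxidative tissues, was at 975 and 905 in 2i and 231 and 156 in SL (log2 difference 2.30, SE 0.17, adjusted p = 4.3e-05). Ldha, its partner, was at 733 and 689.7 in 2i and 700.0 and 701 in SL and did not pass (difference 0.02, adjusted p = 0.86); it passed as lower on the values as deposited (-0.267, adjusted p = 0.0374). Slc2a1, the glucose transporter GLUT1, fell from 242 and 354 to 127 and 124 (log2 difference -1.22, SE 0.17, adjusted p = 6.3e-04). Pdk1, a kinase that inhibits pyruvate dehydrogenase, fell from 87.2 and 99.7 to 22.9 and 21.4 (log2 difference -2.03, SE 0.11, adjusted p = 1.4e-05). Eno2 was 6.35-fold higher. Of 16 hypoxia-induced genes 7 rose and 5 fell (median 0.14, and -0.12 as deposited), against 33.5% and 29.9% of all genes. Vegfa, the angiogenic factor, was at 77.8 and 69 FPKM in 2i and 11.1 and 22.7 in SL (log2 difference 2.13, SE 0.27, adjusted p = 4.3e-04). P4ha1, a collagen prolyl hydroxylase, was 3.35-fold higher. Egln3 and Egln1, the oxygen-sensing prolyl hydroxylases, went the other way, 5.59-fold and 5.35-fold lower.

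Lipid synthesis genes rose more often than they fell. Of 14 fatty acid genes 9 rose, 6 at least 2-fold, and 1 fell (median 0.71). Scd1, the desaturase that makes oleate, was at 88.1 and 92.7 FPKM in 2i and 13.2 and 18.9 in SL (log2 difference 2.44, SE 0.16, adjusted p = 2.7e-05). Mlxipl, the carbohydrate-response factor ChREBP, was at 11.9 and 10.8 in 2i and 1.23 and 2.56 in SL (log2 difference 2.13, SE 0.22, adjusted p = 1.7e-04). Srebf1, the lipogenic factor SREBP1, was at 53.7 and 58.1 in 2i and 16.7 and 23.4 in SL (log2 difference 1.45, SE 0.16, adjusted p = 2.1e-04). These regulators and the desaturase rose in both libraries, but Fasn, the synthase itself, fell from 96.6 and 87.8 to 42.1 and 40.6 (log2 difference -1.14, SE 0.10, adjusted p = 8.7e-05). The sterol pathway counted 14 rises and 3 falls of 24 (median 0.37; 8 and 7 as deposited, median 0.10), with 1 at least 2-fold. Srebf2, its master regulator, was at 72.7 and 72.4 FPKM in 2i and 33.4 and 41.7 in SL (log2 difference 0.94, SE 0.13, adjusted p = 5.1e-04), and Stard4, a cholesterol carrier, was 2.24-fold higher. Sqle, the squalene epoxidase, fell (-0.56). Hmgcs1 was at 81.97 and 83.4 in 2i and 77.6 and 78.1 in SL and did not pass (adjusted p = 0.45); its difference of 0.09 turned to -0.200 as deposited and -0.051 with upper-quartile scaling. The SREBP element TCACNCCAC, searched on both strands, was found in 1 of 20 windows of this list, that of Hmgcs1, and in 1.242% of all windows.

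Stress pathways gave no common direction. Among 18 p53 targets 11 rose and 3 fell, 2 and 1 at least 2-fold (median 0.43; 7 and 5 as deposited). Cdkn1a, the cell cycle inhibitor p21, was at 135 and 128 FPKM in 2i and 48.96 and 48.3 in SL (log2 difference 1.42, SE 0.09, adjusted p = 2.7e-05). Mdm2, the p53 ubiquitin ligase, was at 124 and 125 in 2i and 78.9 and 71.8 in SL (log2 difference 0.72, SE 0.10, adjusted p = 5.9e-04). Of 23 ATF4 targets 5 rose and 7 fell (median 0.03). Over all genes tested 33.5% rose and 29.9% fell, so these counts do not set the list apart. Ddit3, the factor CHOP, was at 78.9 and 75.4 FPKM in 2i and 18.9 and 17.8 in SL (log2 difference 2.02, SE 0.10, adjusted p = 1.1e-05), and Nupr1 was 3.53-fold higher. Trib3 (-0.97), Chac1 (-1.67) and the arginine transporter gene Slc7a3 (-1.71) fell. Of 17 metal and selenium genes 6 rose and 5 fell (median 0.28, and 0.01 as deposited), also near the shares of all genes. Gpx1, glutathione peroxidase, was at 981 and 1012 FPKM in 2i and 472 and 429 in SL (log2 difference 1.15, SE 0.10, adjusted p = 9.1e-05). Txnrd1, thioredoxin reductase, was at 1443 and 1072 in 2i and 2496 and 2367 in SL (log2 difference -0.97, SE 0.15, adjusted p = 0.0012). The metallothionein Mt1 rose (0.78, and 0.497 without SL library 2); the call of Mt2 (0.47) was lost as deposited (0.183) and with upper-quartile scaling (0.333), was 0.716 without SL library 1 and 0.217 without SL library 2, and was lost without either 2i library (0.465 and 0.513).

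**Figure D4:**
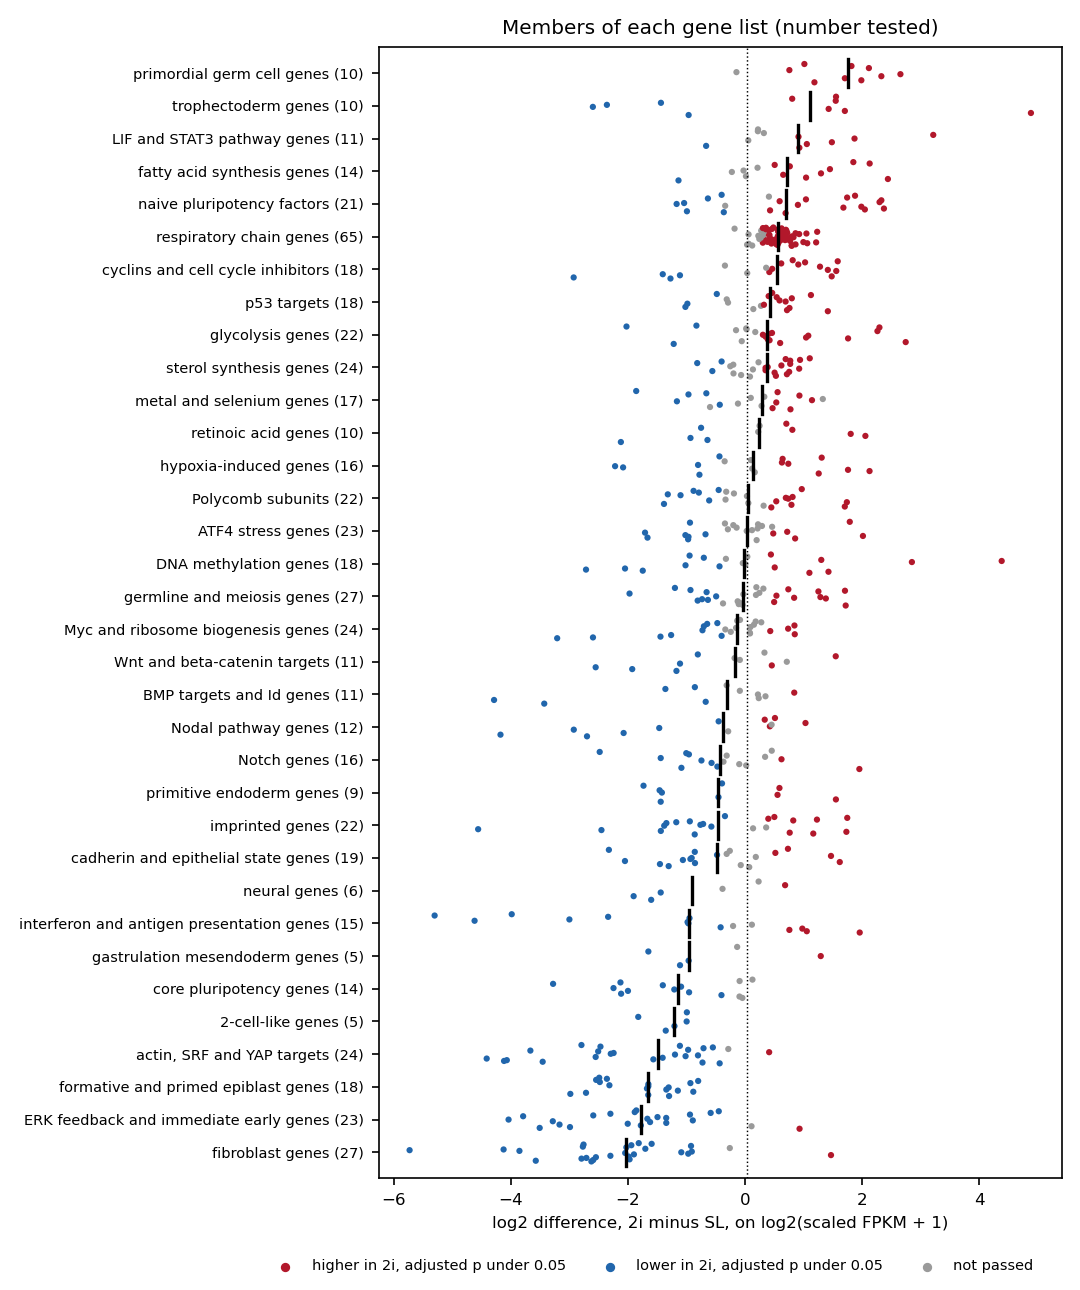
Log2 difference, 2i minus SL, of each tested member of each gene list with 5 or more tested genes, ordered by the list's median (black bar); the dotted line is the median of all 12091 genes. Points are red or blue where a gene passed as higher or lower and grey where it did not; Gapdh, a failed estimate, is not drawn. The fibroblast, ERK and formative lists lie lowest and the primordial germ cell list highest.

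The tamoxifen-treated libraries gave the same contrast, and no library is in both sets. Medium and feeders differ together in both. Whether same-numbered untreated and treated libraries were grown or prepared together is unknown, so the overlap below may include shared batch differences. There 4441 of 12277 tested genes (36.2%) were higher in 2i and 3672 (29.9%) lower, 66.1% in all, and 1149 (9.36%) and 970 (7.9%) at least 2-fold, 17.3% in all. Of 11893 genes tested in both, 3067 were higher in both, 77.88% of those higher in untreated cells and 71.64% of those higher after tamoxifen. Another 2536 were lower in both, 71.12% and 71.64% of the respective lists. In the opposite direction were 86 of the genes that rose and 94 of those that fell in untreated cells. At 2-fold or more, 793 rises (60.81% and 71.25%) and 708 falls (55.84% and 76.79%) were shared, and 3 and 1 were opposite. Apela was at 70.8 and 65.8 FPKM in 2i and 0.217 and 0.237 in SL after tamoxifen (difference 5.82), close to the untreated values. Bgn was at 0.2201 and 0.499 in 2i and 128 and 112 in SL (-6.48). Gata2 had a smaller difference there than in untreated cells (1.915 against 4.888), at 10.01 and 8.638 FPKM in 2i and 2.522 and 1.118 in SL. Smaller differences were also seen for Rab3il1 (1.679 against 3.922) and Adgrg1 (1.703 against 3.901). Formative genes fell in 16 of 18 there (median -1.66), ERK targets in 21 of 22 (-1.70) and fibroblast genes in 27 of 28 (-2.65). Apart from Gadd45g and Rasd1, each of the 12 largest rises and 12 largest falls in untreated cells passed in the same direction there.

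**Figure D5:**
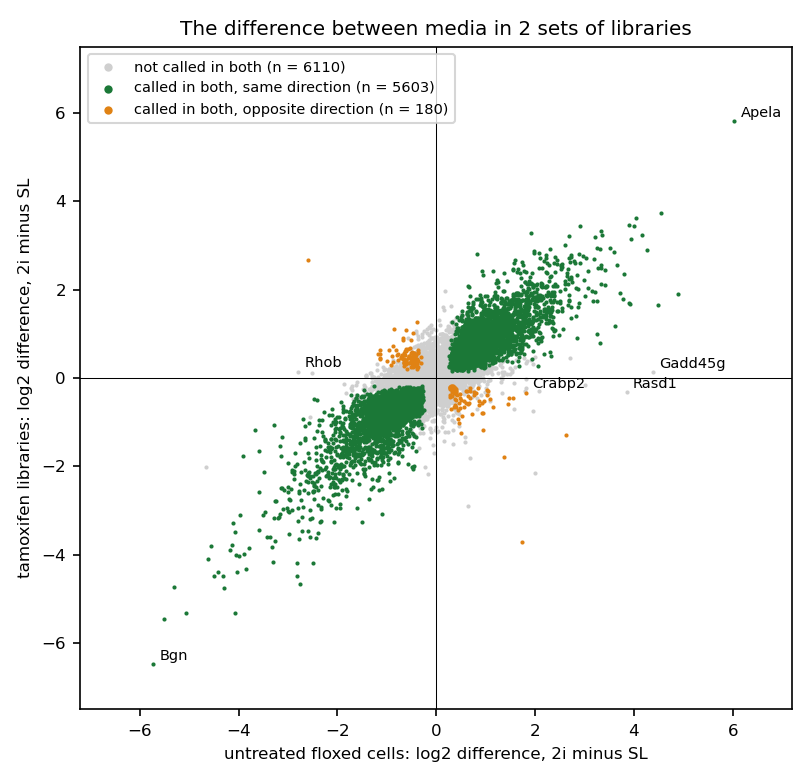
Log2 difference, 2i minus SL, of the 11893 genes tested in both sets of libraries: untreated floxed cells on the x axis and tamoxifen-treated libraries on the y axis, 2 libraries in each medium. Green points passed in both in the same direction (5603), orange points in opposite directions (180); 1 gene, Gapdh, lies outside the axes. Rasd1 and Gadd45g are high on the x axis only.

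Some genes passed in the untreated cells and did not pass after tamoxifen. Gadd45g, at 99.01 and 140.4 FPKM in untreated 2i, was at 11.9 and 9.81 in 2i and 8.88 and 10.7 in SL after tamoxifen (difference 0.14, adjusted p = 0.39). Rhob was 10.4-fold lower in untreated 2i, and after tamoxifen was at 16.9 and 20.8 in 2i and 16.7 and 16.9 in SL (0.15, adjusted p = 0.28). Respiratory chain genes rose in 32 of 65 after tamoxifen (median 0.16), fewer than the 54 above, and trophectoderm genes had a median of -0.46 there against 1.12. After tamoxifen p53 targets had 5 rises and 8 falls of 19, against 11 and 3 of 18 untreated. Glycolysis genes had 8 and 8 of 22, against 13 and 4, and hypoxia-induced genes 2 and 5 of 15, against 7 and 5 of 16. Whether the contrast differs between untreated and treated cells was not tested for any of these.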

How the data were processed

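The deposited tables give, per the file headers, FPKM for each gene and library, and the authors' mean reads per gene and group, a signal that is not whole counts. The submitters' processing notes name FastQC, TopHat2, SAMtools, Cufflinks, DESeq2 and the builds GRCm38 and mm10; versions, the annotation and use of strand are not given there or in the labels, and per the labels' protocols libraries were made with TruSeq v2. The tables of both media were joined on gene ID; 19547 of 19718 IDs carried a GENCODE M21 name. FPKM was scaled by the median of ratios over 14815 genes above 0 in all 4 libraries, and log2(FPKM + 1) was tested with limma 3.58.1 (R 4.3.3; trend, 2 residual degrees of freedom; 2 against 2), with Benjamini-Hochberg adjustment. The tamoxifen libraries were scaled and fitted alone; wild-type levels come from another deposited table, set on the scale of the 4 libraries. For genes over 200 mean reads, FPKM and read ratios agree within 1 (log2) for 98.9% of 9271; 4 genes listed at 0 despite reads are failed estimates. The fit was tested on simulated data. Members and the 36 lists (708 of 732 names matched) were chosen with earlier results of these data known. Named genes are the 12 largest rises and falls whose reads agree, without pseudogenes, rows of several genes and genes GENCODE names as predicted, fixed anchors in each list, and up to 4 further members past the threshold, ranked by size; some genes the rule names are not reported here. Promoters come from RefSeq (GRCm38.p6). Alternatives tried were the pseudocount, the minimum FPKM, the scaling, a fit of all 8 libraries, the replicate number as a block, failed estimates left out, and each library left out.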

Additional observations from a re-analysis of the deposited data

Results flagged for a closer look

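In 8 named genes, both 2i libraries lay above both SL libraries in one set, untreated or tamoxifen, and below both in the other; in none was the difference between the 2 sets tested. Rasd1 was higher in 2i in untreated cells (difference 3.85) and had a difference of -0.32 after tamoxifen (adjusted p = 0.093). Ascl2 stood at 1.55 untreated and -0.45 after tamoxifen (adjusted p = 0.025). Stat3 stood at 1.06 and -0.30 (adjusted p = 0.019 after tamoxifen). Crabp2 stood at 1.81 and -0.33 (adjusted p = 0.019). Plk2, a kinase among the p53 targets, stood at 0.80 and -0.34 (adjusted p = 0.047). Id2 went from -0.67 untreated to 0.86 after tamoxifen (adjusted p = 2.5e-04). Foxd3, the gene named as deleted in the treated libraries, went from -0.49 to 0.33 (adjusted p = 0.049), at 2.16 and 2.504 FPKM in treated 2i and 1.56 and 1.75 in treated SL. Cdh1 did not pass in untreated cells (0.0723) and stood at -0.55 after tamoxifen (adjusted p = 5.7e-04). No group has more than 2 libraries, so single libraries were not examined for standing apart.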

How the results depend on the processing

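Requiring a 2-fold difference cut the counts to 1350 higher and 1276 lower in untreated cells and to 1149 and 970 after tamoxifen. Under every other setting run the 4 counts stayed within 1.5 times those of the main analysis. Leaving out 1 library gave 3013 to 4316 higher and 2608 to 3892 lower genes in untreated cells, and 3235 to 4818 higher and 2481 to 4082 lower after tamoxifen; the lone library of a medium is then assumed to vary like the other medium. The scaling moved the balance most: 2702 higher and 5246 lower as deposited and 3389 and 4391 with upper-quartile scaling (after tamoxifen 3796 and 4406, and 3764 and 4464). Without a minimum FPKM the split was 4114 and 4390, and with a minimum of 5 FPKM 3378 and 2488. With the replicate number as a block, 4048 genes were higher and 3626 lower in untreated cells, and 4411 and 3674 after tamoxifen, and no call of a named gene changed. The deviations of same-numbered 2i and SL libraries correlated with r = -0.099 (untreated) and -0.088 (tamoxifen). That r compares media within a treatment, so it cannot show whether same-numbered untreated and treated libraries of a medium share a batch. Of 198 named genes tested, 185 kept direction and call as deposited and 192 with upper-quartile scaling. Directions that turned were, as deposited, Hmgcs1 (-0.200), Ldha (-0.267), Cdh1 (-0.215), Vim (-0.103) and B2m (-0.165); with upper-quartile scaling, Hmgcs1 (-0.051), Ldha (-0.117), Cdh1 (-0.065) and B2m (-0.017). With 1 library left out, the difference ranged from -0.158 to 0.059 for Pou5f1, -0.193 to 0.039 for Sox2, -0.224 to 0.074 for Sycp3, -0.012 to 0.372 for Vim and -0.315 to 0.110 for Notch1, none of which passed in the main analysis. The cause was not tested. The depth of single libraries is unknown, which leaves low FPKM values without an interval.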

Other observations

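Genes that share a name stem were counted over all 373 stems with at least 5 tested genes. The stems named below were chosen after the values had been seen and lie toward the ends of the range of medians. Over all genes tested 33.5% were higher and 29.9% lower. Many stems are small, and no stem was tested as a set. All 11 tested Rhox genes, homeobox genes in a cluster on the X chromosome, were higher in 2i (median difference 1.78, lowest 0.51, highest 3.66). Rhox5 averaged 454.9 FPKM in 2i and 113.7 in SL, Rhox6 38.9 and 3.52, and Rhox9 47.4 and 2.90. All 6 tested Xlr genes, also X-linked, were higher (median 1.65), with Xlr3a at 47.1 FPKM in 2i and 21.9 in SL. Many Rhox and Xlr members are near-identical copies whose reads may be shared, so values of single copies are uncertain. The X chromosome as a whole had a median of 0.08 over 444 tested genes. Medians of the other chromosomes lay between -0.08 (chromosome 8) and 0.22 (chromosome 1, 0.16 after tamoxifen).

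Of 6 Oas genes, double-stranded RNA sensors induced by interferon, 5 were higher and none lower (median 1.40): Oas1a averaged 21.4 FPKM in 2i and 3.81 in SL, and Oas1g 20.9 and 3.33; these are close copies too. All 5 tested Gbp genes were lower (median -2.05), so that interferon-inducible families went opposite ways. Of 7 Gstm glutathione transferase genes 6 were higher (median 1.602). Of 24 collagen genes 19 were lower and none higher (median -1.34), and all 5 Mfap microfibril genes were lower (median -1.598), beside the fibroblast markers reported above. Of 9 Fzd genes, the Wnt receptors, 7 were lower and 1 higher (median -0.81). All counts of this paragraph stand beside 33.5% higher and 29.9% lower over all genes.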
